A study of Rattus norvegicus with 10 samples.

Results

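*Mgam* (ENSRNOG00000026177) and *Svopl* (ENSRNOG00000013378) were followed in 10 supraoptic nuclei (SONs), as 2 of the 32402 genes counted. Both were chosen by their measured fall after Creb3l1 knockdown in these same SONs. They had the steepest fitted falls among the genes with at least 1 CPM (a count relative to the size of its library) in a group, an adjusted p under 0.05 and the same direction in all 5 animals. The size of the fall is therefore given here as a description and was not tested. The 5 animals were male Sprague Dawley rats, whose age was not given. Each received an adeno-associated virus (AAV) carrying a non-targeting short hairpin RNA (shRNA) in the left SON and an AAV carrying a Creb3l1 shRNA in the right SON, and poly(A) RNA was sequenced 3 weeks later from a punch of each SON. Every animal thus gave 1 control and 1 knockdown SON, all 10 SONs had received a virus, and the side of the brain cannot be told apart from the shRNA. A punch holds many cell types, so that fewer cells of a type and less RNA per cell cannot be told apart in these values. The total count was between 29754252 and 34382889 in control SONs and between 29020948 and 33612965 in knockdown SONs.

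The SON is a hypothalamic nucleus of magnocellular neurones, which make vasopressin and oxytocin and send their axons to the posterior pituitary. Creb3l1 is a transcription factor held in the membrane of the endoplasmic reticulum and released by cleavage, after which its cytoplasmic part enters the nucleus. *Mgam* encodes maltase-glucoamylase, an alpha-glucosidase best known from the brush border of the small intestine, where it releases glucose from the short sugars left by starch digestion. *Svopl* encodes SVOP-like, a membrane protein of the major facilitator superfamily named for its likeness to the synaptic vesicle protein SVOP. No role in magnocellular neurones is assumed for either gene.

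Both genes lie on chromosome 4, with 36 protein-coding genes between them in the RefSeq order of the GRCr8 assembly. *Svopl* sits between *Trim24* and *Atp6v0a4*, and *Mgam* sits between *Tas2r138* and its paralogue *Mgam2*. Whether reads of *Mgam* and *Mgam2* were shared depends on how the authors counted reads that map to several places, which is not given in the sources used here, so the *Mgam* count carries that uncertainty. Since both genes were low in the same SONs, their promoters are shown as RefSeq gives them, from 250 bases before to 50 bases after the start of the gene, 5′ to 3′ on the strand of the gene. Capitals mark a match to one of the motifs named after the sequences. The *Mgam* promoter is chr4:70408013-70408312 on the plus strand and the *Svopl* promoter is chr4:67725642-67725941 on the minus strand, both in GRCr8.
Mgam: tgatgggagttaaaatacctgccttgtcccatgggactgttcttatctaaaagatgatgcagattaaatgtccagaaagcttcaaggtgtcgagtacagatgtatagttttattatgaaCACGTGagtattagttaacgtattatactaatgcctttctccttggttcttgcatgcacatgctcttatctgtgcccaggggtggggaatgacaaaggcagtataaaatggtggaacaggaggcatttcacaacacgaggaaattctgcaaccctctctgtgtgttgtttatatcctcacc
Svopl: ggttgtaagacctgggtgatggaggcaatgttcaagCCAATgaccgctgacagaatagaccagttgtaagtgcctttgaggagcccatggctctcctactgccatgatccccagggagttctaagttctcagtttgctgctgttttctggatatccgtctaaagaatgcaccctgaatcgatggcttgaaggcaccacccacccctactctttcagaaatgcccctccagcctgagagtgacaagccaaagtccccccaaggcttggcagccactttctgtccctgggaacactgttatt

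The motifs searched on both strands were TGACGT and CACGTC, core letters of the cyclic AMP response element type bound by the CREB family, the palindrome CACGTG, known as an E-box, and CCACG and CCAAT, the parts of the endoplasmic reticulum stress element. TGACGT and CACGTC share letters in a longer match, as do CCACG and either CACGTC or CACGTG. The E-box was added to the search after the sequences had been seen. *Mgam* held CACGTG once, 131 bases before the start, and none of the other motifs. *Svopl* held CCAAT once, 214 bases before the start. Of the 33469 promoters of the table, 7.94% held TGACGT, 6.31% CACGTC, 6.42% CACGTG, 31.6% CCACG and 37.5% CCAAT. The G and C content was 41.3% in the *Mgam* promoter and 51.7% in that of *Svopl*, with 4 and 3 CG dinucleotides. The windows thus shared no match to the motifs searched, and a match or its absence does not show what binds there. Other motifs that the study reported for Creb3l1 were not searched. The study's own map of Creb3l1 binding sites was not used here, so binding at these promoters was not tested.

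The targeted gene was measured first. Creb3l1 was at 20.3, 26.5, 30.7, 33.5 and 23.4 TMM-normalised CPM, which are CPM values on library sizes scaled by edgeR's trimmed mean factors, in the control SONs of animals 1 to 5. The knockdown SONs of the same animals were at 7.10, 13.8, 8.69, 16.7 and 13.6. No knockdown SON reached the lowest control SON, and between 28.3% and 58.4% of the control level was left within an animal.

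*Mgam* was sequenced with 216, 152, 190, 227 and 184 counts in the control SONs of animals 1 to 5, or 7.30, 4.54, 5.46, 6.82 and 5.42 CPM. In the knockdown SONs it had 21, 12, 10, 8 and 8 counts, or 0.663, 0.372, 0.333, 0.288 and 0.258 CPM. The groups lay far apart, the lowest control SON being 6.84 times the highest knockdown SON. The mean was 5.91 ± 1.13 CPM in control and 0.383 ± 0.162 CPM in knockdown SONs (SD, n = 5 in each group), so that 6.48% of the control mean was left. The fitted log2 fold change was -3.93 (standard error 0.28).

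*Svopl* had 199, 103, 140, 196 and 167 counts in the control SONs, or 6.72, 3.07, 4.02, 5.89 and 4.92 CPM. The knockdown SONs held 5, 9, 5, 11 and 16 counts, or 0.158, 0.279, 0.166, 0.397 and 0.516 CPM. Here too the groups did not meet, and the lowest control SON was 5.96 times the highest knockdown SON. The control mean was 4.93 ± 1.45 CPM and the knockdown mean 0.303 ± 0.154 CPM (SD, n = 5 in each group), 6.16% of control. Its fitted log2 fold change was -4.01 (standard error 0.36). The members were chosen on this comparison, in which 895 of 16286 genes tested (5.50%) had every knockdown SON below every control SON, 1648 (10.1%) were lower in all 5 animals, and 732 (4.49%) were lower and past the threshold. The threshold here and below is a Benjamini-Hochberg adjusted p under 0.05 over all genes tested, from the quasi-likelihood (QL) test of edgeR.

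**Figure D1:**
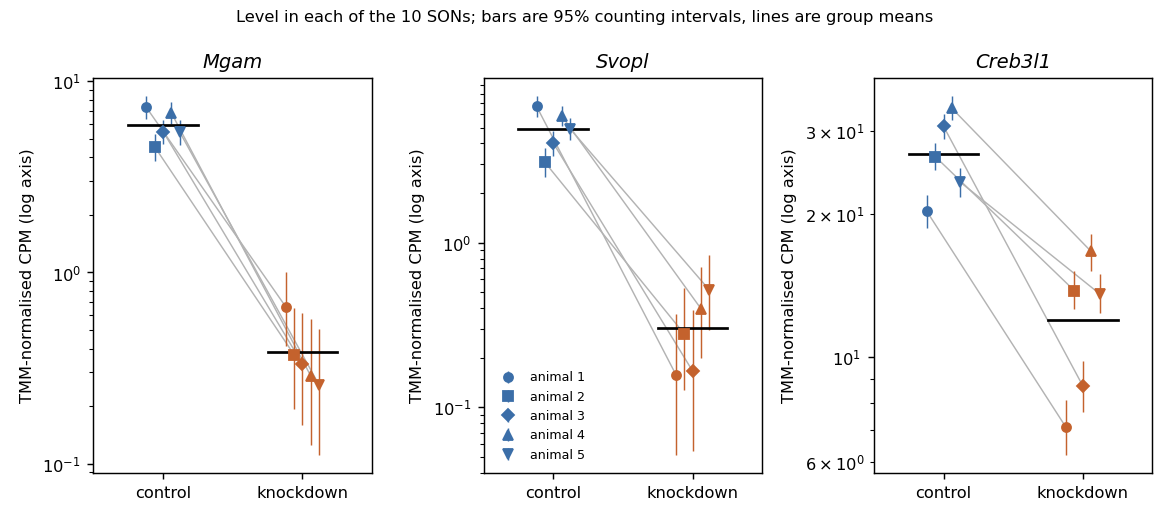
TMM-normalised CPM (log axis, a separate scale in each panel) of *Mgam*, *Svopl* and Creb3l1 in the control and knockdown SON of each animal, joined by grey lines. Bars are 95% counting intervals and black lines are group means; *Mgam* goes from a mean of 5.91 to 0.383 CPM and *Svopl* from 4.93 to 0.303 CPM, while Creb3l1 goes from 26.9 to 12.0 CPM.

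The 2 genes were neighbours in the order of falls. After *Svopl* and *Mgam* came *Scnn1g*, the gamma subunit of the epithelial sodium channel, with a fitted log2 fold change of -3.86 on 0 to 77 counts per SON. *Cdk15*, a cyclin-dependent kinase, came next at -3.39 on 2 to 122 counts, followed by *Mmp9*, a matrix metallopeptidase, at -3.35 on 12 to 300 counts. With no minimum level and no condition on direction or adjusted p, *Svopl* took place 4 and *Mgam* place 5 among the 16286 genes tested. The distance from *Mgam* to *Scnn1g* was smaller than the standard error of either gene, so the order is not fixed by these data. The order of the members also turned when a single SON was left out. Without knockdown replicate 1 the log2 fold changes were -4.22 for *Mgam* and -3.84 for *Svopl*, and without knockdown replicate 3 they were -3.90 and -3.87.

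Within animals, 9.09%, 8.20%, 6.10%, 4.23% and 4.76% of the control level of *Mgam* was left in animals 1 to 5. For *Svopl* it was 2.35%, 9.08%, 4.14%, 6.73% and 10.5%. *Mgam* was thus higher than *Svopl* by this measure in animals 1 and 3 and lower in animals 2, 4 and 5. On the log2 scale the mean of the 5 ratios was -4.01 ± 0.48 for *Mgam* and -4.12 ± 0.89 for *Svopl* (SD, n = 5 animals), a gap between the genes well inside the spread of either. Animal 1 was the most uneven, since its *Svopl* was 42.6-fold lower on the strength of 5 counts. Creb3l1 left 35.0%, 52.2%, 28.3%, 49.7% and 58.4% in the same animals. In each animal both members were thus lowered by a larger factor than the targeted gene. This comes with the choice of the members as the steepest falls and is no separate result.

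**Figure D2:**
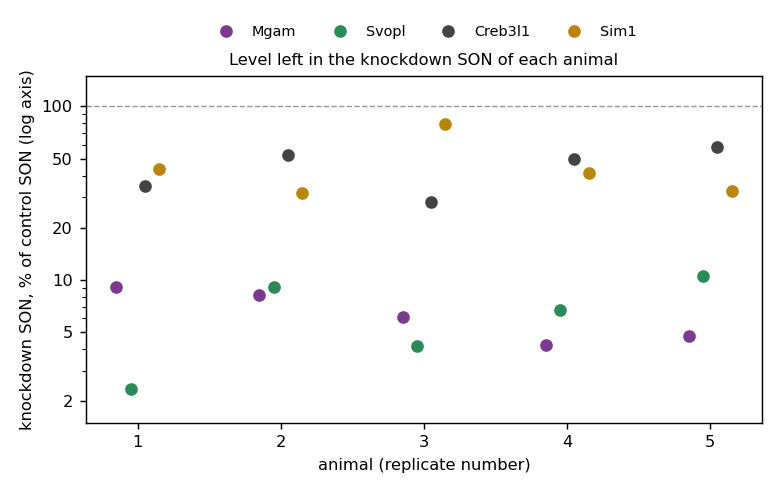
Level of *Mgam*, *Svopl*, Creb3l1 and *Sim1* in the knockdown SON as a percentage of the control SON of the same animal (log axis), for animals 1 to 5. The dashed line marks the control level. *Mgam* and *Svopl* lie between 2.35% and 10.5% in each animal, Creb3l1 between 28.3% and 58.4%, and *Sim1* between 31.8% and 79.3%.

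The members were then compared with each other over the SONs. In control SONs both were highest in animal 1, next in animal 4 and lowest in animal 2, and 9 of the 10 pairs of control SONs stood in the same order in both genes. The exception was animals 3 and 5, which had 5.46 and 5.42 CPM of *Mgam*. In knockdown SONs the order was turned, with only 1 of 10 pairs in the same order. *Mgam* was highest in animal 1 and lowest in animal 5, whereas *Svopl* was lowest in animal 1 and highest in animal 5. The knockdown to control ratios of the animals were in the same order in 3 of 10 pairs.

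How far these orders can be trusted depends on the counts. The 95% Poisson intervals, which cover counting error only, overlapped in 10 of 10 pairs of knockdown SONs for *Mgam* and in 10 of 10 for *Svopl*. In animal 1 the interval of *Mgam* was 0.410 to 1.01 CPM, and in animal 5 it was 0.111 to 0.509 CPM. For *Svopl* the interval was 0.0513 to 0.368 CPM in animal 1 and 0.295 to 0.838 CPM in animal 5. These intervals thus set no pair of knockdown SONs apart in either gene. Overlap does not show that 2 counts are the same, and differences between single SONs were not tested. In control SONs the intervals were apart in 4 of 10 pairs for *Mgam* and in 6 of 10 for *Svopl*, those of animals 1 and 2 in both. The spread of the control counts was also above counting error, with an SD of 29.4 counts for *Mgam* where counting alone gives 13.9, and 40.3 for *Svopl* where it gives 12.7. In knockdown SONs it was 5.4 against 3.44 for *Mgam* and 4.6 against 3.03 for *Svopl*.

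*Svopl* reads per *Mgam* read compare the members without any scaling of the libraries. The ratio, which is read only across SONs since it depends on transcript lengths, was 0.921, 0.678, 0.737, 0.863 and 0.908 in the control SONs of animals 1 to 5. In the knockdown SONs it was 0.238, 0.750, 0.500, 1.38 and 2.0. The mean was 0.821 ± 0.108 in control and 0.973 ± 0.712 in knockdown SONs (SD, n = 5 in each group), so the groups overlapped. Counting error alone is larger in knockdown SONs, with a coefficient of variation of 29.1% for *Mgam* and 33.0% for *Svopl* against 7.18% and 7.88% in control SONs. How much of the wider spread of the knockdown ratios is counting error was not tested. The spread is not read as a difference between the groups.

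**Figure D3:**
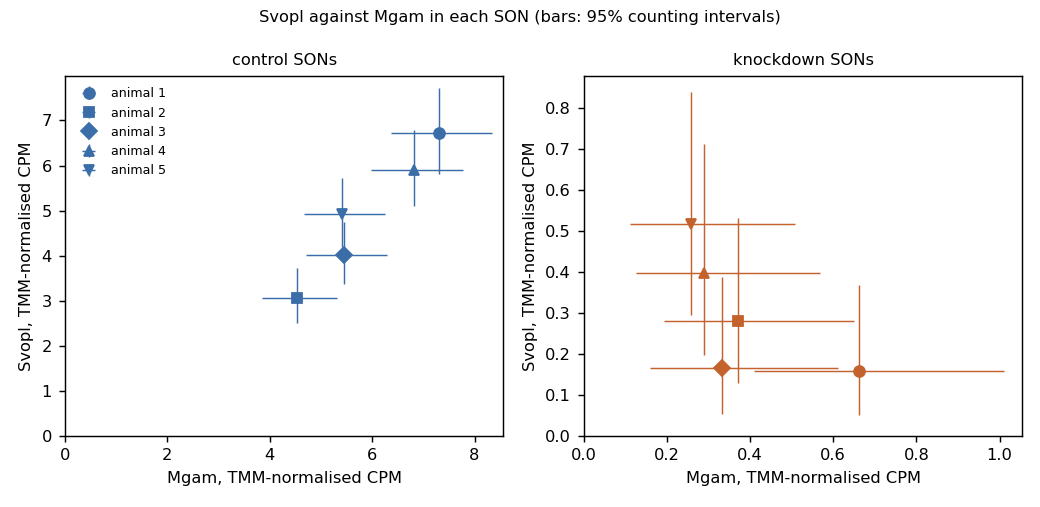
*Svopl* against *Mgam* in TMM-normalised CPM, control SONs in the first panel and knockdown SONs in the second, each on its own scale, 1 symbol per animal with 95% counting intervals as bars. The control SONs rise together from 4.54 and 3.07 CPM to 7.30 and 6.72 CPM, and the knockdown SONs run the other way with intervals that all overlap.

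The relation to residual Creb3l1 was read within each group, because the 10 SONs fall into the 2 groups for all 3 genes, which leaves no pooled correlation to give, and 5 SONs are too few for one within a group. Among knockdown SONs, *Svopl* was in the order of Creb3l1 in 8 of 10 pairs. The lowest *Svopl* values, 0.158 and 0.166 CPM, were in animals 1 and 3, which also had the lowest Creb3l1, 7.10 and 8.69 CPM. *Mgam* was in the order of Creb3l1 in 3 of 10 pairs of knockdown SONs. By the percentage left within an animal, *Svopl* followed the order of Creb3l1 in 9 of 10 pairs of animals and *Mgam* in 4 of 10. These orders rest on the 5 to 21 counts per knockdown SON, whose intervals overlapped throughout. Neither the agreement of *Svopl* nor its difference from *Mgam* was tested, and neither is read as a result. Among control SONs, where Creb3l1 ranged from 20.3 to 33.5 CPM, the order was shared in 4 of 10 pairs for *Svopl* and in 5 of 10 for *Mgam*. The control SON with the least Creb3l1, that of animal 1, had the most *Mgam* and the most *Svopl*.

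**Figure D4:**
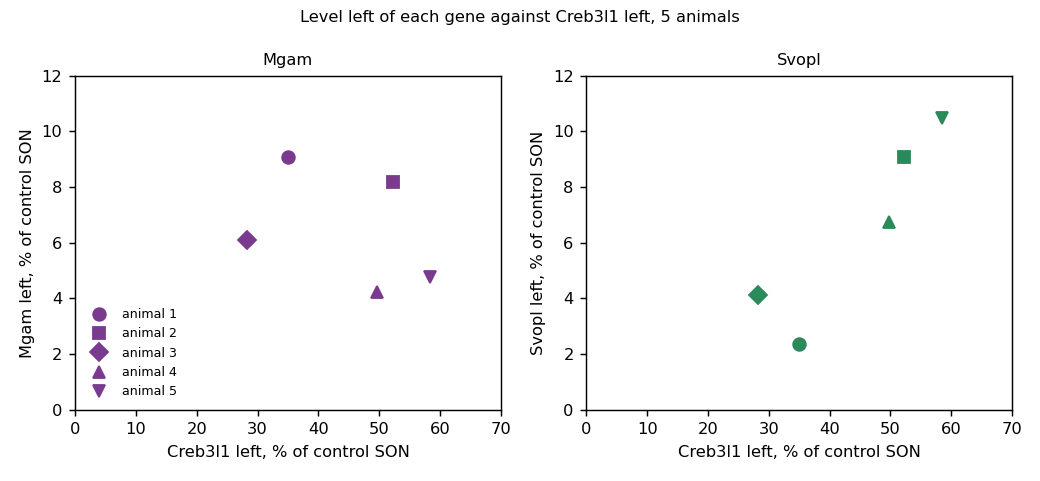
Percentage of the control level left in the knockdown SON, *Mgam* (first panel) and *Svopl* (second panel) against Creb3l1, 1 symbol for each of 5 animals. *Svopl* is lowest, at 2.35% and 4.14%, in the 2 animals with 35.0% and 28.3% of Creb3l1 left, and *Mgam* follows the order of Creb3l1 in 4 of 10 pairs of animals, with counting intervals in the knockdown SONs that all overlap.

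*Sim1*, a transcription factor needed for magnocellular neurones to form, was the one listed marker of these cells that could be named. Names came only from genes with the smallest adjusted p in the study's table on these same samples. An unchanged marker could thus not be seen here, and the call of *Sim1* is no check on these cells. *Sim1* had 52.7, 58.5, 44.5, 72.8 and 48.0 CPM in control SONs and 23.0, 18.6, 35.3, 29.9 and 15.6 CPM in knockdown SONs. No knockdown SON reached a control SON. *Sim1* fell by 1.18 (log2, SE 0.23), past the threshold (edgeR QL adjusted p = 0.0136). With the animal as a replicate block in edgeR it was not (adjusted p = 0.0711). Animal 3 kept most *Sim1*, 79.3%, and had 6.10% of *Mgam* and 4.14% of *Svopl*, while animal 2 kept 31.8% of *Sim1* with 8.20% and 9.08% of the members. The order of the animals in *Sim1* was shared in 5 of 10 pairs by *Mgam* and in 2 of 10 by *Svopl*. Of 68 marker genes in 8 lists, for magnocellular and other neurones, astrocytes, oligodendrocytes, microglia, endothelium, neutrophils and lymphocytes, *Sim1* alone could be linked to an identifier, so the labelled tissue could not be checked further and the part of other cell types in these falls was not tested.

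Profiles over the 10 SONs were compared by the root mean square difference between log2 CPM values (with 0.1 CPM added) after centring each gene on its own mean. Among 14795 other genes with at least 1 CPM in the control mean, whose median difference from *Mgam* was 1.90, *Svopl* was place 3 from *Mgam*, at 0.59. *Mgam* was place 2 from *Svopl*, whose median difference from all these genes was 1.93. Both places rest on the fall itself, by which the members were chosen. Once each group's mean was removed, the correlation between the members over the 10 SONs was -0.18. It was place 11585 in the order of correlation with *Mgam* and place 7827 in that with *Svopl*. This value pools control SONs, where 9 of 10 pairs shared their order, with knockdown SONs of low counts, where 1 of 10 did. It thus does not describe either group alone. The correlation is a description over SONs that share animals and libraries.

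Nearest to *Mgam* by the root mean square measure were *Cdk15* (0.53), *Rufy4* (0.59), *Svopl*, *Rd3* (0.59) and *Mmp9* (0.64). *Rufy4*, a RUN and FYVE domain protein, had 2.61 ± 0.939 CPM in control and 0.277 ± 0.164 CPM in knockdown SONs (SD, n = 5 in each group). *Rd3*, which regulates guanylate cyclase in photoreceptors, had 3.20 ± 1.00 and 0.405 ± 0.207 CPM. *Cdk15* had 2.79 ± 0.758 and 0.261 ± 0.138 CPM. All 3 genes were at levels of a few CPM in control and below 1 CPM in every knockdown SON.

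Nearest to *Svopl* were *Mmp9* (0.51), *Mgam*, *Scnn1g* (0.61), *Ibsp* (0.66) and *Sprr1a* (0.74). *Mmp9* was among the 5 nearest genes of both members, with 7.52 ± 1.95 CPM in control and 0.733 ± 0.315 CPM in knockdown SONs (SD, n = 5 in each group). *Ibsp*, a sialoprotein of bone matrix, went from 16.4 ± 3.39 to 1.61 ± 0.965 CPM. *Scnn1g* and *Sprr1a*, a small proline-rich protein, were near the limit of counting, at 1.5 and 1.27 CPM in the control mean and at 0 in at least 1 knockdown SON. With 1 CPM added in place of 0.1, each member became the nearest gene to the other, and both *Mmp9* and *Cdk15* were among the 5 nearest of each.

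The enzymes around *Mgam* were looked at as a list of 16 genes for glucosidases, disaccharidases and glycogen metabolism. Of these, 3 could be linked to an identifier, and all 3 passed the threshold, 2 lower and 1 higher in knockdown, against 7.86% of the genes tested that passed it in either direction. A gene could be named here only if it was in the part of the study's table that was used, which was chosen by the smallest adjusted p on these samples, so these 3 say nothing of the share of the list that changed. The other 13, among them the alpha-glucosidase genes *Si*, *Gaa*, *Ganc* and *Ganab*, were not analysed here.

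*Lct* encodes lactase, like maltase-glucoamylase a disaccharidase of the intestinal brush border. It was at 0.608, 0.567, 0.862, 1.05 and 0.766 CPM in the control SONs of animals 1 to 5 and at 0.0947, 0.155, 0.266, 0.252 and 0.0323 CPM in the knockdown SONs. The groups did not overlap, on 1 to 35 counts per SON. *Lct* fell by 2.26 (log2, SE 0.41) with an edgeR QL adjusted p of 0.0112.

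*Stbd1* encodes a starch-binding domain protein that ties glycogen to membranes. Control SONs held 17.8, 12.0, 12.0, 10.3 and 9.66 CPM and knockdown SONs 5.30, 5.77, 4.36, 6.53 and 6.65 CPM, with no overlap. *Stbd1* fell by 1.11 (log2, SE 0.19) with an edgeR QL adjusted p of 0.00808. *Gyg1* encodes glycogenin, the primer of glycogen synthesis, and rose. Its mean was 55.6 ± 4.81 CPM in control and 75.3 ± 8.54 CPM in knockdown SONs (SD, n = 5 each), and was higher in every animal. The rise was 0.44 (log2, SE 0.09) with an edgeR QL adjusted p of 0.0211. The lowest knockdown SON, at 62.2 CPM, was just under the highest control SON, at 62.9 CPM. *Lct* and *Stbd1* stayed past the threshold whichever SON was left out, 10 of 10 times, and *Gyg1* 5 of 10 times, being lost without control replicate 2, 3 or 5 or knockdown replicate 1 or 2. With the animal as a replicate block in edgeR the adjusted p was 0.0723 for *Lct*, 0.0880 for *Stbd1* and 0.0921 for *Gyg1*, so none was past the threshold.

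Of 13 genes for glucose entry, transporters and hexokinases, none could be linked to an identifier. Of 17 genes of the SV2, SVOP and SLC22 transporters around *Svopl*, 1 could be, under the same limit on names. *Slc22a12*, the urate transporter of the kidney, had 1.45, 1.55, 0.690, 1.92 and 1.94 CPM in control and 3.28, 3.72, 3.56, 1.95 and 2.13 CPM in knockdown SONs. It was higher in the knockdown SON of every animal, by little in animals 4 and 5. The lowest knockdown SON, at 1.95 CPM, was almost level with the highest control SON, at 1.94 CPM. Its log2 fold change was 0.95 (SE 0.30) and missed the threshold (edgeR QL adjusted p = 0.0805). *Svop* itself, the namesake of *Svopl*, was not analysed here.

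Since both members lie in the same stretch of chromosome 4, the protein-coding genes between them and the 10 beyond each were looked up. Of these 56 genes, 5 could be linked to an identifier, under the same limit on names. *Dgki*, a diacylglycerol kinase 4 genes before *Svopl*, fell by 0.65 (log2, SE 0.17, edgeR QL adjusted p = 0.0442), with 18.8 ± 3.48 CPM in control and 12.0 ± 2.59 CPM in knockdown SONs (SD, n = 5 each). *Ubn2*, a chromatin protein 7 genes after *Svopl*, rose by 0.48 (log2, SE 0.12, edgeR QL adjusted p = 0.0333), with 19.4 ± 3.23 CPM in control and 27.1 ± 1.89 CPM in knockdown SONs (SD, n = 5 each). *Braf*, *Agk* and *Hipk2*, which lie between the members, did not pass the threshold, with log2 fold changes of -0.41, 0.35 and 0.55 and adjusted p of 0.0620, 0.0736 and 0.0584 (edgeR QL). When each SON was left out in turn, *Dgki* and *Ubn2* were past the threshold 2 and 1 of 10 times. *Braf*, *Hipk2* and *Agk* were past it 2, 1 and 0 of 10 times. With the animal as a block, *Dgki* and *Ubn2* both had an edgeR QL adjusted p of 0.122. Of all genes tested, 7.86% passed the threshold in either direction. The calls thus do not set *Dgki* and *Ubn2* apart from the other named neighbours. The 5 genes moved in both directions, 2 lower and 3 higher by their fitted values, and by 0.65 or less on the log2 scale. The members moved by about 4, but they were chosen as the steepest falls, so this gap comes with that choice. Most of the 56 genes could not be named, and a change of the whole stretch was not tested.

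**Figure D5:**
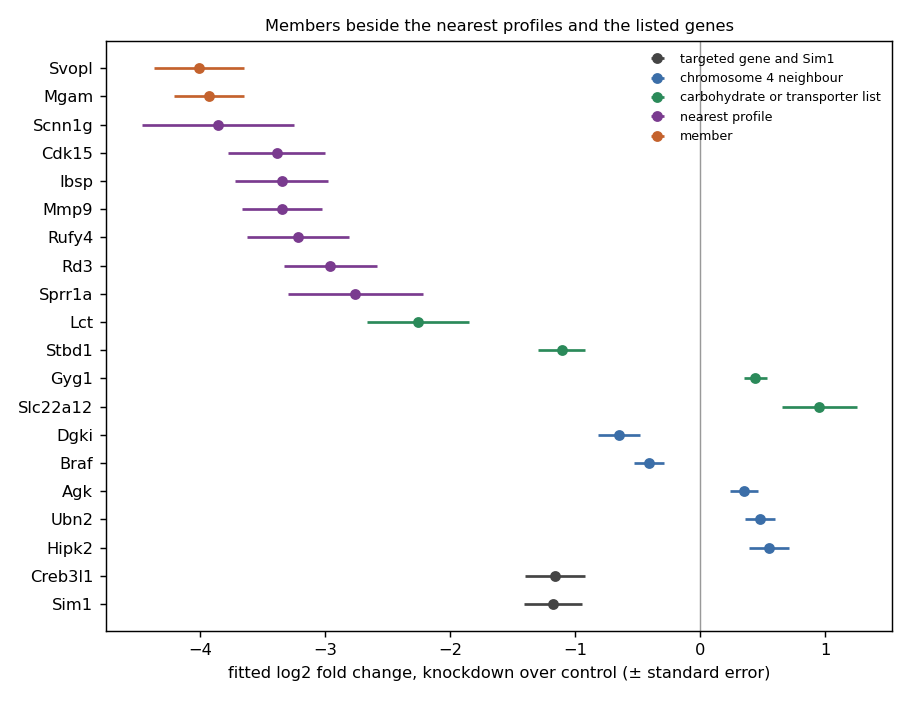
Fitted log2 fold change, knockdown over control, with its standard error as bars, for the members, the genes with the nearest profiles, the listed carbohydrate and transporter genes, the named neighbours on chromosome 4, and Creb3l1 and *Sim1*. The members sit at -4.01 and -3.93, *Lct* at -2.26, and the chromosome 4 neighbours between -0.65 and 0.55.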

How the data were processed

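RNA-seq counts of 10 SONs from 5 rats were analysed. The authors trimmed the reads, used STAR for alignment to Rn6 and featureCounts for gene-level counting. The deposited values are raw counts without normalisation. The library kit was stranded, but the strand setting of the counting and the treatment of reads with several positions are not given in the sources used here. Value columns were matched to their shifted header names by order.

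Genes were filtered with filterByExpr (minimum count 10), which left 16286 of 24286 genes with a count, scaled with TMM factors (0.956 to 1.07) and compared between groups with the quasi-likelihood test of edgeR 4.0.16 in R 4.3.3, without a term for the animal, since the study's methods state none. Benjamini-Hochberg adjusted p under 0.05 was the threshold. Standard errors were worked back from this test, as the absolute log2 fold change divided by the square root of its F statistic, and are approximate. Alternatives were DESeq2 1.42.0, limma-voom (limma 3.58.1), RLE factors, library size only, other filters, the animal as a replicate block and leaving out each SON. The fits were tested on simulated counts drawn independently for each SON, with no effect of the animal, which cannot test the pairing. Counting intervals are exact 95% Poisson intervals (SciPy 1.17.1).

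The members, lists and tests were chosen with earlier results of these data known. Named genes were the members, Creb3l1, the 5 nearest profiles of each member, and list genes. Symbols came from the 1999 genes of the study's table used here, of which 1998 have one, and 9 genes past the threshold had none. The planned choice of neighbours by tested genes could not be made with so few names, so all protein-coding genes between the members and 10 on each side were used, a choice made after the data were seen.

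The SONs of 1 animal form a pair by the methods. The correlations of their deviations from the group means, over 16286 genes, were -0.117, 0.450, -0.440, -0.324 and -0.549. No pair of replicates agreed within sampling noise (lowest chi-square per degree of freedom 27.5). Promoter sequences are RefSeq's (GRCr8), matched by symbol for 2 of 2 members.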

Additional observations from a re-analysis of the deposited data

Results flagged for a closer look

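Of 46 groups of 5 values looked at, 5 had their highest value far from the remaining 4, the gap being over 0.71 of the range (Dixon's 95% limit), which chance gives in about 1 group of 20. *Mgam* in knockdown replicate 1 was 0.663 CPM against 0.258 to 0.372 in the other knockdown SONs, on 21 counts, and its log2 fold change without that SON was -4.22. *Sim1* in animal 3 was 79.3% of control against 31.8% to 43.7% in the other animals. *Stbd1* in control replicate 1 was 17.8 CPM against 9.66 to 12.0. In knockdown replicate 3, *Dgki* was 16.4 CPM against 9.87 to 11.7 and *Braf* 20.7 CPM against 15.9 to 16.9. No cause was tested for these values.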

How the results depend on the processing

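The log2 fold changes of *Mgam* and *Svopl* moved by less than 1 SD between animals (0.48 and 0.89) in each of the 16 alternatives that tested them, from -4.22 to -3.85 and from -4.32 to -3.84 when 1 SON was left out and at -3.97 and -4.04 with the animal as a replicate block. Requiring at least 10 counts in every SON removed both genes, whose knockdown counts of 5 to 21 limit the precision of the fall. Genes past the threshold numbered 1280 in edgeR, 2188 with DESeq2, 9 with the replicate block, which has 4 residual degrees of freedom in place of 8 (2996 at an unadjusted p under 0.05), and 519 to 1699 with 1 SON left out. The lowest counts were without knockdown replicate 1 (519), 2 (614) or 4 (834) and without control replicate 2 (817), 3 (558) or 5 (613). With library size only, 23.6% of the calls were higher in knockdown, against 42.8% with TMM and 34.1% with no filter.

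Of the 3 named carbohydrate genes 0 were past the threshold with the block (3 at an unadjusted p under 0.05). The transporter gene *Slc22a12* was past it only with DESeq2, 1 of 1 against 0 in edgeR (1 at an unadjusted p under 0.05). The named neighbours numbered 5 with DESeq2, 0 with no filter, 0 with the block (5 unadjusted in both) and 0 to 2 with 1 SON left out, against 2 in edgeR. It was 0 without control replicate 2, 3 or 5 or knockdown replicate 1, 2, 4 or 5. The genes that could be named had been chosen by small adjusted p in the study's own DESeq2 table, so the calls of named genes under DESeq2 are not independent of that choice. Of the other changes, the cause was not tested. Of the 5 nearest genes, 3 for *Mgam* and 2 for *Svopl* were shared with those found with 1 CPM added, and 0 with those found by correlation of the deviations from the group means.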
